A study of Mus musculus with 4 samples.

Results

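The 10 genes described here, Taf7l, Spdya, Cited1, H2-Ab1, 4930524B15Rik, Gm15262, Tex101, Dmrtc2, 1700013H16Rik and Stk31, are late-induced germ cell genes outside the usual panel of meiosis genes, and they were chosen by name because of how high they stood in E14.5 germ cells. They are 10 of the 19321 genes in the deposited table. All 10 were found there, and all had UMIs (unique molecular identifiers, each counting 1 captured transcript) in E14.5 germ cells. The values that chose them are the levels of E14.5 against E11.5 germ cells, so that contrast is given only as a description.

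Gonads of XX mouse embryos (strain C57BL/6) were collected daily between E11.5 and E14.5, with no other genotype or treatment in the labels, digested to single cells and profiled on the 10x Chromium system with the version 2 kit for 3′ ends. There was 1 library per stage, so no difference was tested, no p-value is given, and stage and library cannot be told apart. The labels do not say how many embryos each library pooled. Germ cells were cells with a UMI of at least 3 of the 6 genes Dazl, Ddx4, Dnd1, Mael, Dppa5a and Mov10l1, and somatic cells were cells with at most 1 of them.

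From the first stage to the last this gave 245, 650, 756 and 2410 germ cells, 4061 of 19387 cells in all, and 14149 somatic cells. The median germ cell carried 31268 UMIs at E11.5 and 15541 at E14.5, and the median somatic cell 13777 and 10077. Across the libraries, 175 barcode sequences occurred in 2 or more of them. Levels are given as CPM, the summed UMIs of a gene as a part of all UMIs in the same cells, with exact Poisson 95% intervals that cover counting error only. They count 3′ ends and are not compared between genes. In such sums, fewer cells with a transcript and less transcript per cell cannot be told apart, so shares of cells are given as well.

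In the fetal ovary, germ cells leave mitosis and enter meiotic prophase. Stra8 is switched on early in that step under retinoic acid, and Sycp3 codes for a part of the axial element along which meiotic chromosomes later pair. Several of the 10 genes are known mainly from the testis, where meiosis starts after birth. They range from regulators of transcription (Taf7l, Cited1, Dmrtc2) through the cell cycle and telomere factor Spdya to surface proteins (Tex101, H2-Ab1) and the tudor protein Stk31.

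In germ cells all 10 genes were at their highest at E14.5, and each gained more CPM between E13.5 and E14.5 than over the days before. Taf7l, an X-linked germ cell relative of the TFIID subunit Taf7, had germ cell levels of 0.756, 1.30, 7.98 and 159 CPM from the first stage to the last, from 6, 25, 155 and 6477 UMIs. Only the E14.5 library was high, and its interval (155 to 163) lay far above that of E13.5 (6.77 to 9.34). Dmrtc2, also named Dmrt7, codes for a DM-domain protein that male meiosis needs, and it stood at 1.39, 1.46, 4.43 and 79.0 CPM. Cited1, a co-activator that binds CBP and p300, stood at 1.39, 3.91, 20.2 and 129 CPM. All 3 were higher at E13.5 than at E12.5, with log2 changes of 2.61 (2.0 to 3.29) for Taf7l, 1.60 (0.97 to 2.27) for Dmrtc2 and 2.37 (2.01 to 2.74) for Cited1.

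Spdya, whose protein activates CDK2 and helps to fix telomeres to the nuclear envelope in prophase, stood at 0.126, 0.365, 2.21 and 50.3 CPM, from 1, 7, 43 and 2049 UMIs. The first of these values rests on 1 UMI and the first 2 intervals overlap. Tex101, a glycoprotein of the germ cell surface from the LY6 family, stood at 3.28, 6.26, 16.7 and 230 CPM, with intervals that did not overlap between neighbouring stages. H2-Ab1, the beta chain of an MHC class II molecule, stood at 0.252, 0.0522, 1.08 and 30.5 CPM, from 2, 1, 21 and 1243 UMIs. For H2-Ab1 the E11.5 and E12.5 libraries were near 0 and their intervals overlapped.

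4930524B15Rik stood at 0, 0.313, 2.63 and 37.5 CPM, and Gm15262 at 0, 0.261, 3.19 and 32.7 CPM. Each had 0 UMIs in the E11.5 germ cells, with a limit set at 3 UMIs (0.378 CPM) and an exact interval up to 0.465 CPM. 1700013H16Rik, which RefSeq also lists as Slx2 and Xlr6, stood at 4.28, 9.96, 21.9 and 130 CPM. Stk31, which has a tudor domain and a kinase-like domain, stood at 40.5, 92.7, 156 and 499 CPM. The name late-induced fits Stk31 least, because 18.0% of the E11.5 germ cells already had a UMI of it after every cell was thinned to 5000 UMIs, where the other 9 genes were at 0% to 1.63%.

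**Figure D1:**
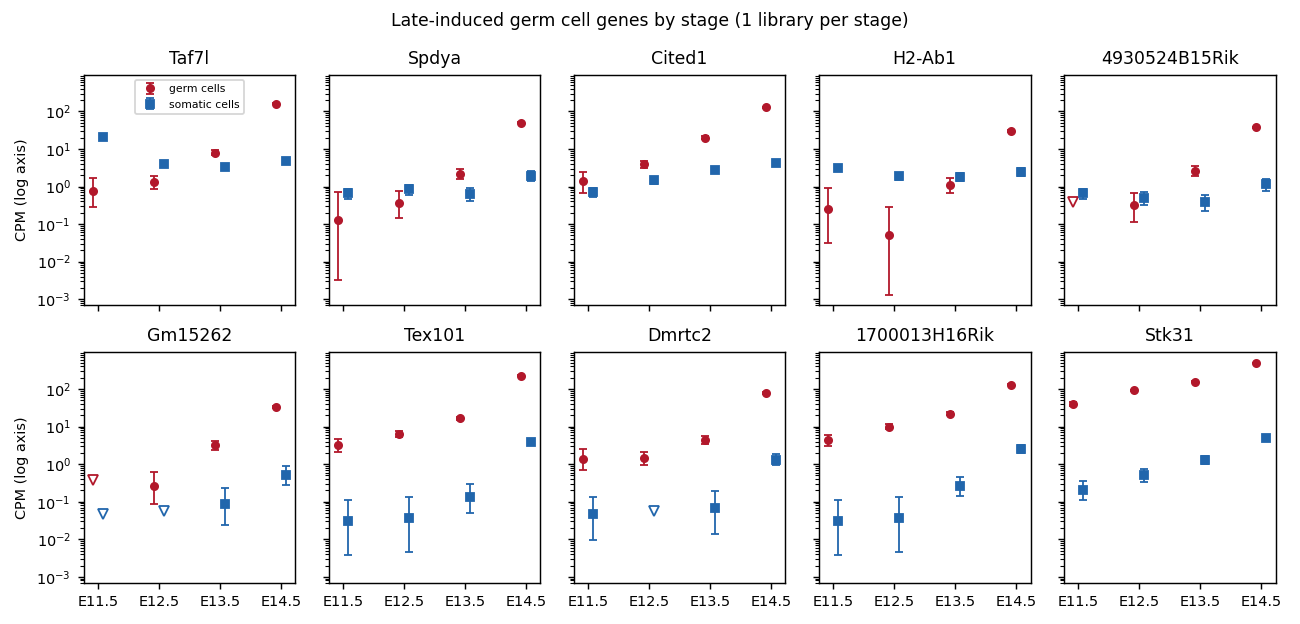
Level of each gene in CPM (log axis) by embryonic stage, in germ cells (red circles) and somatic cells (blue squares), 1 library per stage. Bars are exact Poisson 95% intervals, and open triangles stand at the limit set for 0 UMIs, 3 UMIs. The red points of E14.5 are the highest of every panel, and in the Taf7l panel the blue point of E11.5 (20.3) lies above the blue points of the later stages (3.24 to 4.90).

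A gene was counted as different between a pair of groups by a rule of size, since nothing could be tested: 50 UMIs or more over both groups, 20 CPM or more in the higher group, a ratio of 4 or more, and separate intervals. By this rule 9 of the 10 genes were higher at E14.5 than at E13.5, against 1.17% of all 5631 genes that met the minimums. Those 9 ranged from a log2 change of 2.57 (2.43 to 2.72) for 1700013H16Rik to 4.82 (4.20 to 5.52) for H2-Ab1, and Stk31 changed by 1.68 (1.63 to 1.74). Their median was 3.81 with Stk31 included, beside 0.15 over all genes that met the minimums. For comparison over the same step, Stra8 changed by 2.81 (2.76 to 2.87), Sycp3 by 2.95 (2.85 to 3.05) and the cohesin gene Smc1b by 1.96 (1.93 to 2.0). The intervals of Taf7l (4.09 to 4.56), Spdya (4.07 to 4.98), H2-Ab1, 4930524B15Rik (3.43 to 4.27), Tex101 (3.62 to 3.95) and Dmrtc2 (3.85 to 4.48) all lay above that of Sycp3. These steps share the E14.5 library with the values that chose the genes.

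For the 10 genes together the earlier steps were smaller. Their log2 changes were 1.17 (1.02 to 1.32) up to E12.5 and 1.02 (0.94 to 1.09) up to E13.5. Single genes differed in this. Gm15262 changed by 3.61 (2.31 to 5.29) up to E13.5, beside 3.36 (2.99 to 3.75) up to E14.5. The intervals of these steps overlapped for H2-Ab1, 4930524B15Rik and Cited1 as well. For the remaining genes the interval of the last step lay above. From E12.5 to E13.5, 1 of the 3 genes that met the minimums was higher by the rule, Cited1, against 0.0977% of all genes. Cited1 met the CPM minimum only through E13.5 (20.2 CPM, against 3.91 at E12.5), so that count is a description. Genes under the minimums could not be called, whatever their change. From E11.5 to E12.5, Stk31 alone met the minimums and was not called, against 0.0614% of all genes. Between E11.5 and E14.5, the contrast that chose them, 10 of 10 were higher, against 6.46% of all genes. The 10 genes together stood at 51.9, 117, 236 and 1376 CPM, a log2 change of 2.54 (2.50 to 2.59) in the last step. Stk31 was the largest part of this sum, with 321 of 412 UMIs at E11.5, 3023 of 4582 at E13.5 and 20317 of 56039 at E14.5. Summed levels here and below therefore follow Stk31 more than the other genes.

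Per cell, more of the genes were detected at once, and cells with a UMI of a gene held more of it. Without thinning, the mean UMIs in such cells rose for each gene from E13.5 to E14.5. The mean went from 4.34 to 8.57 for Stk31 and from 1.09 to 1.54 for Gm15262. After thinning to 5000 UMIs, the median germ cell had a UMI of 0 of the 10 genes in the E11.5 library, of 1 in the E13.5 library and of 3 in the E14.5 library. At E14.5, 37.9% of the germ cells had at least 5 of the 10 and 4.65% had none, while 0.794% of the E13.5 germ cells had at least 5. The share of E14.5 germ cells with a UMI was 44.6% for Taf7l (42.6 to 46.6), 46.0% for Cited1, 55.9% for Tex101 and 87.1% for Stk31. It was 14.3% for H2-Ab1 (12.9 to 15.7), 16.1% for Gm15262 and 18.3% for 4930524B15Rik, with the other 3 genes between 22.4% and 44.2%. In the somatic cells of the same library, thinned alike, the shares ran from 0.199% for Gm15262 to 2.89% for Stk31, and 87.2% of those cells had none of the 10.

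**Figure D2:**
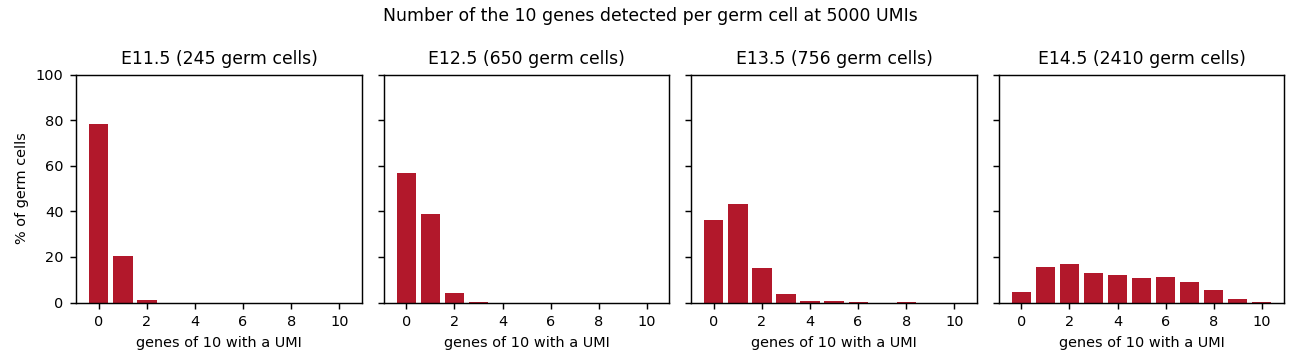
Share of germ cells (percent, bars) by the number of the 10 genes with a UMI, after thinning every cell to 5000 UMIs, 1 panel per stage. At E14.5 the bars spread up to all 10 genes, with a median of 3, where the E11.5 bars end at 2.

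E14.5 germ cells were sorted by their Sycp3 level into 4 bins, 0, low (under 2 UMIs per 10000), mid (2 to under 6) and high (6 or more), and by Stra8 likewise with edges at 4 and 12. The Sycp3 bins held 324, 809, 731 and 546 cells. Taf7l stood at 21.6, 48.7, 185 and 465 CPM from the lowest Sycp3 bin to the highest. Dmrtc2 stood at 8.46, 21.6, 92.2 and 238 CPM, and H2-Ab1 at 3.48, 6.64, 29.8 and 104 CPM. Each of the 10 genes was higher in every bin than in the one before. The ratio of the highest to the lowest Sycp3 bin was 29.9-fold for H2-Ab1, 28.1-fold for Dmrtc2, 25.4-fold for Spdya and 21.6-fold for Taf7l. At the other end it was 6.54-fold for Cited1, 4.85-fold for 1700013H16Rik and 3.08-fold for Stk31.

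By the rule of size, 9 of the 10 genes were higher in the high Sycp3 bin than in the bin at 0, all but Stk31, against 4.06% of all genes. The same number was higher in the high Stra8 bin than in the bin at 0, against 3.2% of all genes. These and the later contrasts of E14.5 bins divide the germ cells whose level chose the genes, so their counts are a description. The median log2 difference was 3.69 by Sycp3 and 4.24 by Stra8, beside 0.10 over all genes in each comparison. Spdya differed by 4.67 (4.20 to 5.17) by Sycp3, while Sycp1, of the synaptonemal complex, differed by 2.23 (2.13 to 2.32) and the pluripotency gene Pou5f1 by -2.22 (-2.38 to -2.06). At E13.5, where only 87 cells filled the mid Stra8 bin, 3 of the 5 genes that met the minimums were higher in it than in the bin at 0, Taf7l, Cited1 and Tex101, against 0.587% of all genes. These 3 stood at 2.0, 8.58 and 7.68 CPM in the bin at 0, so they met the CPM minimum only through the mid bin. Genes under the minimums could not be called, so this count is a description as well. Taf7l differed there by 4.18 (3.45 to 4.98) on the log2 scale, with 36.2 CPM in the mid bin.

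Depth and somatic transcripts moved with these bins. The median cell of the E14.5 Sycp3 bins had 17479, 18273, 14654 and 13130 UMIs. The sum of 7 supporting-cell markers was 137, 57.3, 71.6 and 36.1 CPM from the lowest bin to the highest, against 1957 CPM in E14.5 supporting-like somatic cells, and the sum of 7 immune markers was between 6.30 and 18.3. In the Stra8 bin at 0 the supporting marker sum was 231 CPM, and in the high bin 42.3. Their part in the bin differences was not tested. Without germ cells that had 3 or more of those supporting markers, an alternative added after the data had been seen, the summed level differed by 2.57 between the high Sycp3 bin and the bin at 0. With every cell thinned to 5000 UMIs before binning it differed by 2.0, and with neither change by 2.67 (2.62 to 2.73). Thinning left the low Sycp3 bin empty, and the bin at 0 then held 871 cells in place of 324, so the thinned value compares other sets of cells.

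**Figure D3:**
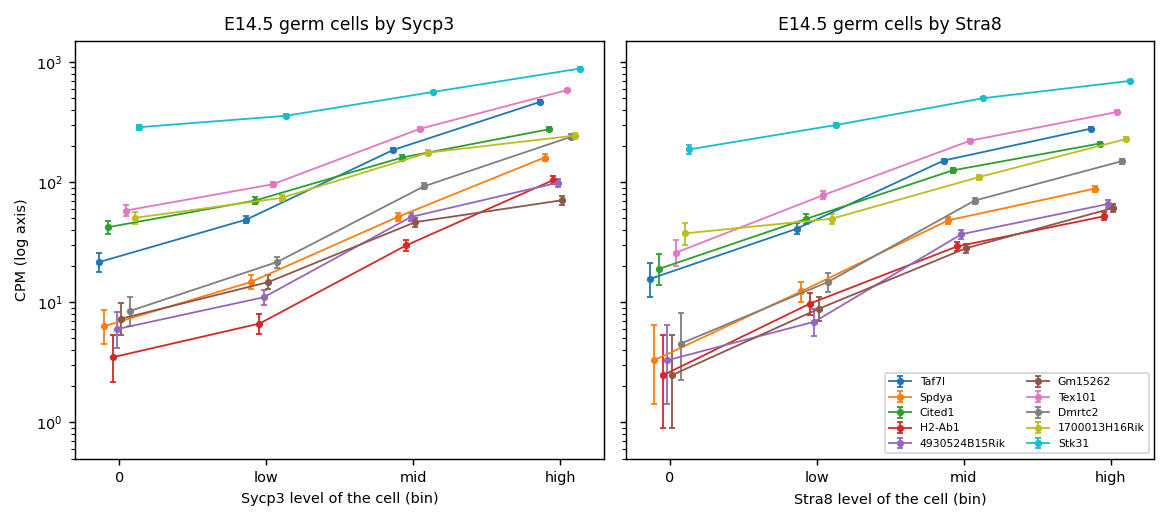
Level of each of the 10 genes in CPM (log axis) in E14.5 germ cells, by Sycp3 bin on the left and by Stra8 bin on the right, with exact Poisson 95% intervals as bars and lines joining the bins of a gene. The lines of H2-Ab1 (3.48 to 104) and Dmrtc2 (8.46 to 238) climb most from the lowest to the highest Sycp3 bin, and that of Stk31 climbs least.

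With both genes used at once, the summed level of the 10 genes differed with Sycp3 at a given Stra8 level. It differed with Stra8 in the Sycp3 bins at 0, low and mid, while in the high Sycp3 bin no difference between mid and high Stra8 was detectable. Among cells of the mid Stra8 bin, the summed level was 699, 753, 1333 and 3114 CPM from the lowest Sycp3 bin to the highest. Among cells of the high Sycp3 bin, it was 3114 CPM at mid Stra8 and 3070 CPM at high Stra8, a log2 difference of -0.02 (-0.06 to 0.02). In the mid Sycp3 bin, high against low Stra8 gave 0.88 (0.76 to 1.01), and in the low Sycp3 bin, high against 0 gave 2.13 (1.96 to 2.29). Those contrasts span wider steps of Stra8 than the one in the high Sycp3 bin, so their sizes are not comparable. At high and mid Stra8, the summed level was 1341 and 753 CPM in the low Sycp3 bin and 1941 and 1333 in the mid bin. In the Sycp3 bin at 0 it was 246, 419 and 699 CPM at Stra8 0, low and mid.

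Single genes departed from the sum. Within the high Sycp3 bin, 1700013H16Rik was higher at high than at mid Stra8, by 0.38 (0.24 to 0.53), and Gm15262 by 0.28 (0.01 to 0.55). H2-Ab1, Tex101 and Taf7l were lower, by -0.31 (-0.52 to -0.09), -0.15 (-0.24 to -0.06) and -0.14 (-0.24 to -0.04). The intervals of the other 5 genes took in 0. Among cells of the high Stra8 bin, Spdya stood at 155 CPM in the high Sycp3 bin and 33.4 in the bins at 0 or low, and H2-Ab1 at 91.8 and 20.6. These were the 2 of 10 genes that the rule of size called there, against 0.539% of all genes.

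The same bins could be compared between E13.5 and E14.5 where both libraries had at least 30 cells, which left 5 pairs. The summed level was higher at E14.5 in all 5, by log2 differences from 0.71 (0.59 to 0.83) at mid Stra8 and low Sycp3 to 0.93 (0.74 to 1.11) at Stra8 0 and low Sycp3. Between 4 and 7 of the 10 genes had an interval above 0, depending on the pair, and none had one below 0. Tex101, Stk31 and 1700013H16Rik were above 0 in all 5. In the low and low pair, Tex101 differed by 1.46 (1.09 to 1.84) and Stk31 by 0.60 (0.47 to 0.72). The rule of size called 0 of 5 genes there, against 0.0958% of all genes. At Stra8 and Sycp3 both 0 it called 0 of 2, against 1.51%, and at mid Stra8 and low Sycp3 0 of 6, against 0.0185%. E13.5 cells were deeper than E14.5 cells, so a bin at 0 was stricter in them. With every cell thinned to 5000 UMIs before binning, the low Sycp3 bin was empty in the E14.5 library, so the pairs were not the same ones. The 4 pairs with enough cells were Stra8 0, low and mid at Sycp3 0, and Stra8 0 at mid Sycp3. In these the summed level differed by 0.91 to 1.18. These matched differences were smaller than the 2.54 between all germ cells of the 2 stages. The matched sums rest largely on Stk31, which held 561 of 757 UMIs in the E13.5 cells at 0 for both genes.

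**Figure D4:**
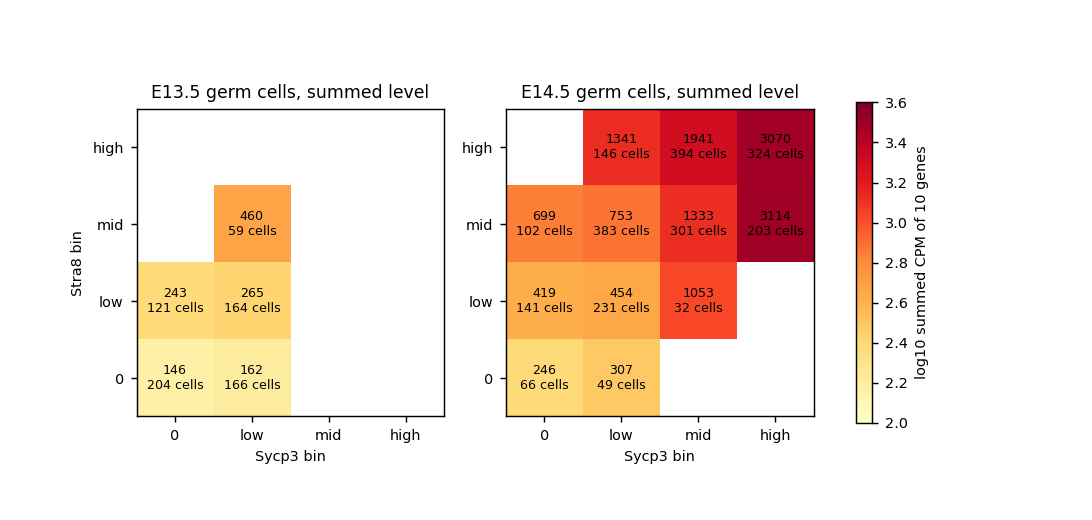
Summed level of the 10 genes in CPM (colour on a log10 scale, number in each square) by Stra8 bin (vertical) and Sycp3 bin (horizontal), for E13.5 and E14.5 germ cells, with the number of cells. Empty squares had fewer than 30 cells. The top squares of E14.5 at high Sycp3 read 3114 and 3070, and each square filled at both stages reads higher at E14.5.

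The genes whose pattern was most like that of each of the 10 were sought across the 21 groups of germ cells that a stage, a Stra8 bin and a Sycp3 bin define, among 10688 genes, by Pearson's r of log2(CPM + 5). These groups share 4 libraries and their depth, so r is a description with no test. Stk31 was closest to Smc1b (0.998), Smc6 and Sycp1. Spdya was closest to Xlr4a (0.994), Dmrtc2 and Sycp2, and Cited1 to Meioc (0.989), a partner of meiotic RNA control. H2-Ab1 was closest to Selk, the MHC class I gene H2-D1 (0.992) and the oocyte factor gene Figla. Among the 10 genes themselves, the 45 pairs had r between 0.835 and 0.993 with a median of 0.960. High values are not particular to them, because the genes were chosen for a shared rise. Each of the 10 also had r over 0.9 with many of the 10688 genes, from 646 for H2-Ab1 to 967 for Tex101.

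The relatives and partners of the 10 genes, from lists chosen by name, were called higher in 1 case, Tdrd7, where 6.46% of all genes that met the minimums were called higher, so their counts are no result about the lists. Of 12 TFIID subunits and paralogs that met the minimums from E11.5 to E14.5, 0 were called, with a median log2 change of 0.95 beside 0.29 over all genes. Taf7, the relative of Taf7l, stood at 84.9 CPM at E11.5 and 104 at E14.5, and Taf4b, a subunit known in the ovary, at 15.1 and 50.7. None of the 4 genes around CDK2 and telomere attachment that met the minimums was called, with Ccdc155 under them at 0.252 and 5.77 CPM, and Cdk2, the kinase that the Spdya protein binds, stood at 11.1 CPM at E11.5 and differed by 0.85 (0.54 to 1.19) on the log2 scale at E14.5. Of 6 tudor and piRNA genes 1 was higher, Tdrd7, at 0.756 and 20.9 CPM. The only DMRT gene that met the minimums was Dmrt1, at 11.2 and 40.2 CPM, which was not called. Of the 4 CITED genes and partners that met the minimums 0 were called, with Cited2 and Cited4 under them, and Ly6e, the only gene of the LY6 list to meet the minimums, was not called either. Ly6k, whose protein partners that of Tex101, fell under the minimums, at 0.252 CPM at E11.5 and 5.55 at E14.5, from 2 and 226 UMIs.

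Between the high Sycp3 bin and the bin at 0, 2 genes of these lists were lower and 0 higher, where 3.11% of all genes were lower, and none of the 10 was. Tfap2c, a germ cell transcription factor of the family that Cited1 proteins can bind, stood at 3.33 CPM against 40.5, a log2 difference of -3.60 (-4.26 to -3.01). Ly6e, of the same family as Tex101, stood at 11.1 against 55.1, a difference of -2.32 (-2.68 to -1.96). Ly6k, under the minimums, stood at 9.60 against 2.82, a difference of 1.77 (0.99 to 2.62).

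H2-Ab1 was the only MHC class II gene to meet the minimums in germ cells. An MHC class II molecule needs an alpha chain, which H2-Aa provides for H2-Ab1, and the invariant chain Cd74 for its assembly. In E14.5 germ cells H2-Aa stood at 0.147 CPM, Cd74 at 0.270, H2-Eb1 at 1.65, H2-DMa at 2.65 and H2-Oa at 4.84. H2-Ab1 stood at 30.5 there, but counts of 3′ ends are not compared between genes, so a missing partner cannot be read from these values. H2-Aa was also low in the somatic cells of each stage, at 0.0671 to 0.327 CPM. Of 10 other listed class II genes, 7 had a row that was used here and 0 met the minimums. Immune-like cells of the E14.5 library held 4.60 CPM of H2-Ab1, from 2 UMIs, and 36.8 of Cd74, so H2-Ab1 was lower in them than in the germ cells.

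All 10 genes were present at low levels in E14.5 somatic cells. As a share of the germ cell level, they were at 1.01% to 1.80% for the 5 germ cell genes Stra8, Sycp1, Sycp3, Smc1b and Pou5f1. Stk31 (1.01%), Gm15262 (1.56%), Dmrtc2 (1.69%), Tex101 (1.71%) and 1700013H16Rik (1.96%, 1.51 to 2.50) had intervals that overlapped that range. The other 5 lay above it, with 3.03% for 4930524B15Rik (2.02 to 4.37), 3.08% for Taf7l (2.56 to 3.68), 3.29% for Cited1 (2.69 to 3.98), 3.82% for Spdya (2.81 to 5.06) and 8.22% for H2-Ab1 (6.29 to 10.6). That range leaves out the intervals of the 5 germ cell genes, and that of Pou5f1 (1.42 to 2.24) overlapped the interval of 4930524B15Rik. The 5 germ cell genes also differed among themselves, with separate intervals for Sycp1 (0.83 to 1.21) and Sycp3 (1.34 to 1.89). The part of free RNA from germ cells in these values was not tested. At the threshold of the germ cell rule, E14.5 cells with 2 of the 6 rule genes had a summed level of 37.3 CPM, and those with 3 had 859.

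In E11.5 somatic cells 4 of the 10 genes were close to absent, while Taf7l was not. Tex101 stood there at 0.0311 CPM from 2 UMIs and 1700013H16Rik at the same level, and Dmrtc2 at 0.0467 from 3. Gm15262 had 0 UMIs, with a limit set at 3 UMIs (0.0467 CPM). Taf7l stood at 20.3 CPM from 1302 UMIs (19.2 to 21.4), then at 3.95, 3.24 and 4.90 CPM at the later stages. At E11.5 Taf7l was thus higher in somatic cells than in germ cells, which held 0.756 CPM. From E11.5 to E14.5 it was lower by the rule of size in somatic cells, a log2 change of -2.05 (-2.32 to -1.78), against 0.762% of all genes, and it was the only one of the 10 to meet the minimums there.

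The E11.5 somatic Taf7l UMIs were held by few cells. Somatic cells were assigned to a class when at least 3 of its 7 markers had a UMI and its marker list led all others. Of the 1302 UMIs, 1185 were in supporting-like cells, with a level of 35.9 to 40.3 CPM, and there 123 of 2146 cells (5.73%) had a Taf7l UMI. The 77 supporting-like cells with 3 or more held 1128 of them, up to 57 in a cell. In E14.5 germ cells 66.9% of the cells had a UMI and the most in a cell was 23. The 77 cells did not stand apart in depth or doublet score, with medians of 12993 UMIs and 0.0507, against 13746 and 0.0507 in supporting-like cells with no Taf7l. Of the supporting markers, Fst stood at 307 and 268 CPM in these 2 groups, Wnt6 at 711 and 586, Amhr2 at 410 and 370, Kitl at 264 and 242, and Irx3 at 49.3 and 65.7. These markers helped to put both groups in the class, so likeness in them was partly set in advance. Foxl2 and Bmp2, also on the list, were not compared. None of the 6 germ cell rule genes had a UMI in 51 of the 77 cells and in 1502 of the 2023 cells with no Taf7l. The share with none was smaller among the 77 cells, a difference that was not tested. Interstitial-like cells of E11.5 held 1.97 CPM of Taf7l.

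**Figure D5:**
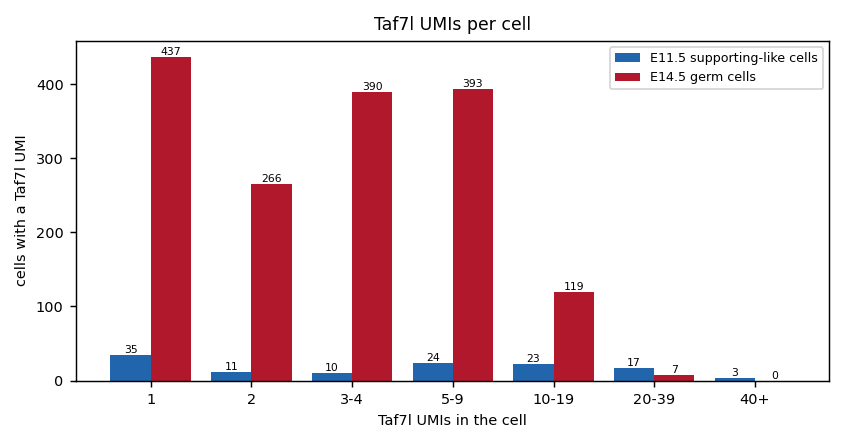
Number of cells (bars, with counts) by Taf7l UMIs in the cell, for E11.5 supporting-like somatic cells (blue) and E14.5 germ cells (red), among cells with at least 1. The 20 blue cells at 20 UMIs or more stand beside 7 red ones, although only 123 blue cells had a Taf7l UMI.

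Cited1 in somatic cells stood at 0.700, 1.47, 2.82 and 4.23 CPM over the stages, and at E14.5 at 6.36 CPM in supporting-like and 2.05 in interstitial-like cells. It was higher at each stage than at the one before, although the E13.5 and E14.5 intervals just separate (2.35 to 3.35 and 3.47 to 5.11). The germ cell genes Stra8, Sycp1, Sycp3, Smc1b and Pou5f1 were also higher in somatic cells of E14.5 than of E11.5, with Pou5f1 at 0.933 and 3.14 CPM and Smc1b at 0.824 and 16.1. Germ cells were 5.11% of the kept cells at E11.5 and 51.4% at E14.5, and the part of free germ cell RNA in the Cited1 values was not tested. H2-Ab1 stood at 3.10, 1.87, 1.79 and 2.51 CPM in somatic cells, spread over all classes, at 2.16 in supporting-like and 2.21 in interstitial-like cells of E14.5. The E11.5 and E14.5 intervals of H2-Ab1 overlapped.

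In the GRCm38 assembly, the mm10 build that the submitters' processing notes name, 4 of the 10 genes lie on the X chromosome, Taf7l, Cited1, Gm15262 and 1700013H16Rik. Tex101 (chr7:24668007-24676675) and Dmrtc2 (chr7:24870057-24877651) are 193 kb apart. No other gene matched the 3′ ends of the 10 closely enough to share reads, at 95% identity over at least 98 bases. Spdya overlaps Mettl4-ps1 on its own strand and Trmt61b on the other, per the GENCODE annotation, and neither had a row in the table.

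Promoter windows, from 250 bases before a RefSeq start site to 50 after it, were found for 8 of the 10 genes. H2-Ab1 and Gm15262 had no entry. The windows were searched on both strands for short motifs tied to meiotic entry or to the cell cycle. The E-box CACGTG was in windows of 2 genes, Taf7l and Stk31, and in 7.15% of all 32851 windows. The motif CNCCTCAG, associated with STRA8, was in windows of Spdya and Stk31 and in 7.94% of all windows. The E2F core TCCCGC was in windows of 4930524B15Rik, Dmrtc2 and Spdya and in 6562 of all windows. The cyclic AMP response element TGACGTCA (1.79% of all windows) and the DR5 type of retinoic acid response element (0.00913%) were in none. The windows of 4 genes are shown because these genes cover the motifs found, from the steepest genes along Sycp3 to the least steep, Stk31. Each is written 5′ to 3′ on the strand of the gene, GRCm38.p6, from 250 bases before the start site to 30 after it, with matches in capitals.
Taf7l, minus strand, chrX:134476461-134476740: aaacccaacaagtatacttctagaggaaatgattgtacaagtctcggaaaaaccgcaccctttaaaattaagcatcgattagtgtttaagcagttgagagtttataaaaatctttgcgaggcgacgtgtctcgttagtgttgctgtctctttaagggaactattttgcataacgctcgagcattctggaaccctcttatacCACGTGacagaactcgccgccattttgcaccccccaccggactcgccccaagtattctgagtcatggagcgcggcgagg
Stk31, plus strand, chr6:49395289-49395568: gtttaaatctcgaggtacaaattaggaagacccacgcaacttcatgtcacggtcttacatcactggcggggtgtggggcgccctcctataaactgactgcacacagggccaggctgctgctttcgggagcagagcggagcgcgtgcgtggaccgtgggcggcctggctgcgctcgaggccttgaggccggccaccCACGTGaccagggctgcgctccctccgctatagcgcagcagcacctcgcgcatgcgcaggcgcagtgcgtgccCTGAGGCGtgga
Spdya, plus strand, chr17:71551811-71552090: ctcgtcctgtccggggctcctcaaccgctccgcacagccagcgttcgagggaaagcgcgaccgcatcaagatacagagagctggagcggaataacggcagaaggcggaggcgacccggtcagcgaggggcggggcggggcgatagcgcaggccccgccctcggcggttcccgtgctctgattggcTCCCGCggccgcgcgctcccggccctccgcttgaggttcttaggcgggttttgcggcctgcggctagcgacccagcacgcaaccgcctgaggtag
Dmrtc2, plus strand, chr7:24869807-24870086: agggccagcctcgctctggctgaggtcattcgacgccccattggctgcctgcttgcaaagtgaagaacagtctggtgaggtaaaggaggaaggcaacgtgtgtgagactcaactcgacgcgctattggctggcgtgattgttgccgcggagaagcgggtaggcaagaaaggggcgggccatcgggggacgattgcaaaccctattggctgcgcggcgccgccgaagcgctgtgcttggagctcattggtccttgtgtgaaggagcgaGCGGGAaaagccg
The E-box of Taf7l lies 49 bases before its start site and that of Stk31 55 bases before. The CNCCTCAG match of Spdya lies 34 bases after the start site, beyond the stretch shown. Another window of Stk31, for a start site further on, overlaps the one shown and holds the same matches. A match is a description of the letters and not a bound site.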

How the data were processed

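Single-cell libraries of XX gonads, 1 per stage, were mapped by the authors to mm10 with Cell Ranger 2.2.0, per the submitters' processing notes. The deposited values are on a natural log scale, ln(1 + UMIs / UMIs of the cell × 10000), as read from the values. All values above 0 came out as whole UMIs at a tolerance of 1e-06, so UMI counts were recovered and summed, where the design had assumed counts. The member genes, gene lists, bins and tests were chosen with earlier results of these data known. The 3 genes most similar to each member were named by a fixed rule.

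Cells over 20% mitochondrial UMIs (3, 1, 1 and 0 by stage) and doublets called by Scrublet in scanpy 1.11.5, with an assumed rate of 0.06 (2.44%, 2.17%, 1.96% and 1.96% of cells), were removed. Cells with 2 of the 6 rule genes were in neither group, and somatic cells with over 5% haemoglobin UMIs were left out. Libraries held 69458291 to 80377418 UMIs. CPM intervals are exact Poisson, log2 ratios use the exact binomial split of the counts, and shares use Clopper-Pearson, all at 95%. The limit given for 0 UMIs is a separate setting of 3 UMIs, and the exact interval reaches higher. PCR and library differences are not in these intervals. Bins under 30 cells were not shown. For shares of cells, every cell was thinned to 5000 UMIs with a fixed seed. Coordinates come from GENCODE and promoters from RefSeq, both GRCm38. Alternatives covered the germ cell rule, doublets, depth, haemoglobin, scaling, minimums and thinning.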

Additional observations from a re-analysis of the deposited data

Results flagged for a closer look

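Taf7l changed in opposite directions in the 2 groups of cells between E11.5 and E14.5. Its log2 change was 7.72 in germ cells and -2.05 in somatic cells (-2.32 to -1.78). The difference between germ and somatic cells was not tested, since each stage had 1 library. The somatic value rests mostly on 77 supporting-like cells of E11.5.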

How the results depend on the processing

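With 1 library per stage, intervals cover counting error only, and the spread among libraries of one stage was not measurable. The change of the summed level from E11.5 to E14.5 was 4.73 on the log2 scale (4.59 to 4.87). It was 4.42 with at least 5 of the 6 rule genes and 4.34 with median-of-ratios scaling. From E13.5 to E14.5 it was 2.54, and 2.43 and 2.37 under the same alternatives. The difference between the high Sycp3 bin and the bin at 0, 2.67, became 2.53 with at least 5 rule genes, 2.0 with cells thinned to 5000 UMIs before binning and 2.57 without germ cells that had 3 or more supporting markers. That between the Stra8 bins, 2.88, became 2.72, 2.23 and 2.75. Thinning emptied the low Sycp3 bin and widened the bin at 0, so the thinned Sycp3 value compares other sets of cells. The somatic level at E14.5, 2.04% of the germ cell level, became 1.85% in cells with at least 10000 UMIs. Other alternatives left these 5 values within their intervals.

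The numbers of the 10 genes called, 10, 9 and 9, were the same under each alternative run for them, while the calls over all genes moved. From E11.5 to E14.5, 371 genes were higher and 97 lower on the CPM scale, against 192 and 188 with median-of-ratios scaling, so the share of calls that were higher went from 79.3% to 50.5%. That scaling shifts every gene by -0.38 over E11.5 to E14.5 and by -0.18 over E13.5 to E14.5. With no CPM minimum 1688 genes were higher over E11.5 to E14.5, 367 over E13.5 to E14.5 in place of 66, and 375 between the Sycp3 bins in place of 243. With no minimums there were 1857, 560 and 533. Of 226 values of single genes under the alternatives, 32 moved outside the interval of the main value and 0 changed sign, with the lowest at 1.23.

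Without thinning, the share of E14.5 germ cells with a UMI was 66.9% for Taf7l, 43.5% for Spdya, 77.7% for Cited1, 29.7% for H2-Ab1, 38.3% for 4930524B15Rik, 35.8% for Gm15262, 78.9% for Tex101, 50.8% for Dmrtc2, 73.0% for 1700013H16Rik and 98.4% for Stk31. No paired analysis was possible because each stage had 1 library.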

Other observations

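The MHC class I genes H2-D1 and H2-K1, with Figla and Xlr4a, were named by their likeness to the 10 genes. Their high levels in late germ cells follow from that choice and are given as a description. H2-D1 had germ cell levels of 0.756, 0.469, 2.16 and 55.6 CPM from the first stage to the last, with 5.64 CPM in the Sycp3 bin at 0 and 176 in the high bin. H2-K1 stood at 2.14, 1.72, 3.86 and 83.3 CPM, and at 13.3 and 259 in those bins. Figla, a regulator of oocyte genes, stood at 0.630, 1.04, 2.37 and 40.7 CPM, and the X-linked Xlr4a at 6.17, 8.08, 12.2 and 91.8.

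Of the genes that were higher in E14.5 than in E11.5 germ cells and have a known position, 41 of 363 (11.3%) lie on the X chromosome, beside 203 of 5574 genes (3.64%) that met the minimums and 1 of 91 that were lower. Between Tex101 and Dmrtc2, 6 genes have a row in the table, and Lypd4, of the same LY6 family as Tex101, was the only one to meet the minimums, at 0.126 CPM at E11.5 and 28.5 at E14.5. E14.5 cells with 4, 5 and 6 of the rule genes had summed levels of the 10 genes of 1857, 1751 and 919 CPM.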
